A study of Bos taurus with 39 samples.

Results

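The proteasome is the barrel-shaped protease that degrades ubiquitin-tagged proteins. Its genes were taken from the deposited table as the rows whose identifier is PSM followed by A, B, C, D or E and a number. The immunoproteasome genes PSMB8, PSMB9 and PSMB10 were left out. The rule found 40 genes among the 21661 rows. They are 7 alpha and 7 beta subunits of the core particle and 17 subunits of the regulatory particle (6 base ATPases, 3 other base subunits and 8 lid subunits). The other members are 3 assembly chaperones of the base, 4 activators and 2 core subunits known for expression in single tissues, PSMA8 and PSMB11.

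RNA was measured by sequencing in milk somatic cells of 39 Holstein cows, 22 labelled LOW RFI and 17 labelled HIGH RFI, to ask which genes differ between cows of high and low feed efficiency. RFI is read here as residual feed intake, the feed eaten beyond what production and body weight predict, so a LOW RFI cow is the more efficient one. Both groups share breed, tissue and protocol, while the labels give no age, parity or stage of lactation. The columns of the table carry a month and year, whose meaning is not explained. The groups were uneven in it, with 2019 on 13 of 22 LOW RFI and 4 of 17 HIGH RFI cows and 2020 on the others. Each cow gave 1 library, and a number such as LOW RFI 6 only names a cow.

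As background, known mainly from yeast, mouse and human, the alpha rings of the core particle form the gate of the barrel. The beta rings hold the protease sites, which belong to PSMB5 (chymotrypsin-like), PSMB6 (caspase-like) and PSMB7 (trypsin-like). The regulatory particle caps the barrel, and its lid and base bind ubiquitin, remove it and unfold the substrate with the ATPases. Cells exposed to interferon replace the protease subunits with PSMB8, PSMB9 and PSMB10, and the PSME1 and PSME2 activator is induced with them, which changes the peptides made for antigen presentation.

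Library size, recovered from the steps of the low values, was 98433353 ± 37938354 mapped reads in LOW RFI and 95941846 ± 22589134 in HIGH RFI cows (SD, n = 22 and 17). Milk somatic cells are a mixture, and milk protein, mammary epithelium, neutrophil, macrophage and T cell markers were all read in both groups. The 7 milk protein genes took 27.4 ± 23.0% of all RPKM in LOW RFI cows (0.225 to 68.7%) and 17.7 ± 20.5% in HIGH RFI cows (0.103 to 80.1%). RPKM is a share of the library, so a cow whose milk protein genes take more leaves less for every other gene. The 4 libraries least correlated with the rest were LOW RFI 18, LOW RFI 20, HIGH RFI 11 and HIGH RFI 17. Values were also given after rescaling each library to its total without those 7 genes. In a bulk sample, fewer cells of a type and less RNA per cell cannot be told apart.

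Of the 40 genes, 38 reached 1 RPKM in at least 17 cows and were tested. The 2 others stayed near 0. PSMA8, a testis subunit in mouse and human, had reads in 2 of 22 LOW RFI and 3 of 17 HIGH RFI cows, with at most 2 reads in a cow. PSMB11, the thymus subunit, had reads in 3 of 22 LOW RFI and 6 of 17 HIGH RFI cows, with at most 5 reads. The fewest reads of any tested member in a cow were 80, for PSMD10.

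The alpha ring was uneven (levels are RPKM as deposited, means ± SD over 22 LOW RFI and 17 HIGH RFI cows here and in what follows). PSMA7 read 94.1 to 270.2 RPKM in LOW RFI cows (median 197, mean 194 ± 49.4) and 66.9 to 286 RPKM in HIGH RFI cows (median 219.7, mean 209 ± 55.8). It was the highest alpha gene in 39 of 39 cows. PSMA4, the lowest on average, read 8.00 to 46.1 RPKM in LOW RFI cows (median 22.5, mean 23.8 ± 10.8) and 5.72 to 46.7 RPKM in HIGH RFI cows (median 31.2, mean 30.1 ± 12.4). Means over the 39 cows spanned 7.56-fold from PSMA7 to PSMA4 although the ring holds each subunit once. PSMA6 came next below PSMA7 with 20.9 to 119 RPKM in LOW RFI cows (median 63.1, mean 64.9 ± 26.9) and 18.3 to 154 RPKM in HIGH RFI cows (median 96.1, mean 87.7 ± 38.3). The order of PSMA1, PSMA3 and PSMA2 was loose. PSMA1 exceeded PSMA3 in 24 of 39 cows and PSMA3 exceeded PSMA2 in 22 of 39, so their order changed from cow to cow. PSMA2 exceeded PSMA4 in 32 of 39 cows. These differences between genes were not tested.

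The beta ring was more even, with a 2.80-fold span of means. PSMB1, a structural beta subunit, read 69.0 to 153 RPKM in LOW RFI cows (median 121, mean 115 ± 30.4) and 51.9 to 170.2 RPKM in HIGH RFI cows (median 126, mean 125 ± 30.7). It was highest in its ring in 20 of 39 cows, and PSMB1, PSMB6, PSMB3, PSMB7 and PSMB4 followed each other closely, with 22 to 28 of 39 cows keeping the order between neighbours. The caspase-like subunit PSMB6 had 65.5 to 172 RPKM in LOW RFI cows (median 119.6, mean 112 ± 26.4) and 48.5 to 170.3 RPKM in HIGH RFI cows (median 117, mean 118 ± 34.1). PSMB7, the trypsin-like subunit, had 55.0 to 196 RPKM in LOW RFI cows (median 96.2, mean 97.7 ± 30.4) and 43.2 to 138 RPKM in HIGH RFI cows (median 104, mean 99.0 ± 27.4). The chymotrypsin-like subunit PSMB5 stood lowest in the ring, in 29 of 39 cows. It had 26.5 to 60.2 RPKM in LOW RFI cows (median 43.1, mean 43.3 ± 9.32) and 19.1 to 66.6 RPKM in HIGH RFI cows (median 41.7, mean 42.1 ± 12.5).

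PSMB5 was below its immunoproteasome replacement PSMB8 in all 22 LOW RFI cows and in 16 of 17 HIGH RFI cows, with a median PSMB5 to PSMB8 ratio of 0.280 in LOW RFI and 0.202 in HIGH RFI cows. PSMB6 was below PSMB9 in 2 of 22 LOW RFI and 5 of 17 HIGH RFI cows, and PSMB7 was below PSMB10 in 1 of 22 LOW RFI and 3 of 17 HIGH RFI cows.

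The base of the regulatory particle had its highest ATPase in PSMC5, with 41.9 to 115 RPKM in LOW RFI cows (median 75.4, mean 77.0 ± 19.5) and 30.8 to 104 RPKM in HIGH RFI cows (median 80.2, mean 78.3 ± 18.6). PSMC1 and PSMC3 lay near it, while PSMC6 was lowest in 38 of 39 cows. PSMC6 had 2.50 to 19.5 RPKM in LOW RFI cows (median 8.81, mean 9.60 ± 4.06) and 3.42 to 24.0 RPKM in HIGH RFI cows (median 14.3, mean 13.0 ± 7.17). The hexamer of ATPases holds each once, and mean RPKM spanned 6.99-fold between them. PSMC3 read 44.7 to 98.6 RPKM in LOW RFI cows (median 68.4, mean 67.8 ± 12.1) and 36.1 to 89.6 RPKM in HIGH RFI cows (median 65.2, mean 65.5 ± 15.3), the narrowest relative spread of any tested member as deposited.

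Of the other base subunits, PSMD2 and PSMD1 are the large scaffolds that dock ubiquitin carriers. PSMD2 had 19.5 to 142 RPKM in LOW RFI cows (median 66.2, mean 73.4 ± 32.8) and 12.6 to 123 RPKM in HIGH RFI cows (median 82.3, mean 80.0 ± 29.0). PSMD1 was lower than PSMD2 and the ubiquitin receptor PSMD4 in 39 of 39 cows. It had 7.48 to 42.6 RPKM in LOW RFI cows (median 24.6, mean 24.1 ± 10.4) and 5.13 to 41.4 RPKM in HIGH RFI cows (median 32.3, mean 28.2 ± 10.4).

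In the lid, PSMD8 was the highest gene in 39 of 39 cows. It read 35.4 to 112 RPKM in LOW RFI cows (median 73.4, mean 74.4 ± 20.0) and 25.8 to 109 RPKM in HIGH RFI cows (median 84.3, mean 80.4 ± 18.8). PSMD14, the deubiquitinase that strips ubiquitin from the substrate, was the lowest lid gene on average. It read 3.69 to 28.2 RPKM in LOW RFI cows (median 14.8, mean 15.2 ± 6.66) and 4.63 to 28.8 RPKM in HIGH RFI cows (median 17.0, mean 17.8 ± 7.64), and PSMD12 exceeded it in 21 of 39 cows, so the pair could not be ordered. The lid scaffold PSMD13 read 20.7 to 52.3 RPKM in LOW RFI cows (median 35.6, mean 36.5 ± 8.31) and 16.4 to 53.4 RPKM in HIGH RFI cows (median 37.6, mean 38.8 ± 10.4).

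Among the chaperones that build the base, PSMD5 had 9.07 to 22.7 RPKM in LOW RFI cows (median 16.0, mean 15.6 ± 3.85) and 7.56 to 28.5 RPKM in HIGH RFI cows (median 18.5, mean 19.3 ± 6.44). PSMD9 had nearly the same level, and PSMD5 exceeded it in 22 of 39 cows. PSMD10, also known as gankyrin, was lowest in 39 of 39 cows, with 1.45 to 5.81 RPKM in LOW RFI cows (median 3.08, mean 3.04 ± 1.08) and 0.996 to 5.15 RPKM in HIGH RFI cows (median 3.66, mean 3.43 ± 1.33).

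The activators covered the widest range, 45.3-fold between means, and kept their order in 39 of 39 cows. PSME1, which forms the interferon-induced cap with PSME2, had 49.1 to 185 RPKM in LOW RFI cows (median 122, mean 124 ± 36.0) and 40.5 to 209 RPKM in HIGH RFI cows (median 137, mean 136 ± 37.4). Its partner PSME2 averaged 73.9 ± 25.5 RPKM in LOW RFI and 80.1 ± 22.6 RPKM in HIGH RFI cows. The nuclear activator PSME3 averaged 24.3 ± 7.80 RPKM in LOW RFI and 26.4 ± 8.51 RPKM in HIGH RFI cows. PSME4, a large nuclear activator, had 0.466 to 5.17 RPKM in LOW RFI cows (median 2.25, mean 2.37 ± 1.07) and 0.514 to 6.50 RPKM in HIGH RFI cows (median 3.90, mean 3.47 ± 1.92).

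**Figure D1:**
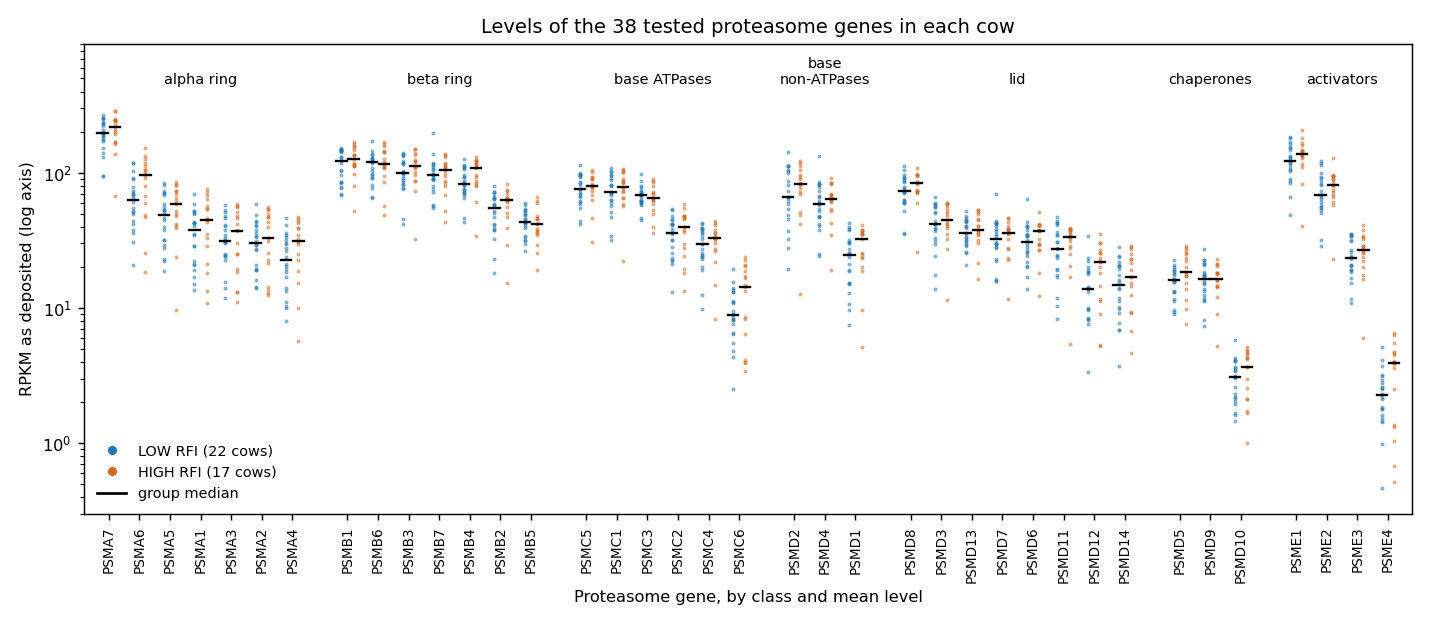
RPKM as deposited, on a log axis, of the 38 tested genes in each cow, grouped by class and ordered by mean level within a class; each dot is a cow, LOW RFI (22) left of HIGH RFI (17), and bars are group medians. PSMA7, PSMD8 and PSME1 lead their classes in 39 of 39 cows, and the dots of the groups overlap for every gene.

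The order of the 31 core and regulatory particle genes was nearly the same in each cow. Spearman's rho between a cow's levels and the mean order was 0.96 in the median cow and 0.99 at most. The lowest, 0.84, was that of HIGH RFI 11, which also had the lowest rescaled value of 15 of the 38 genes. By mean level, 35 of the 38 members lay at percentile 70.0 or above among all genes tested. The others were PSMC6 at percentile 60.5, PSMD10 at 24.8 and PSME4 at 21.8.

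The median core gene was read at a higher level than the median regulatory particle gene in every cow. The median over the 14 core genes was 33.7 to 94.8 RPKM in LOW RFI cows (mean 61.1 ± 17.6) and 21.9 to 100.5 RPKM in HIGH RFI cows (mean 70.4 ± 20.1). The median over the 17 regulatory particle genes was 16.9 to 53.0 RPKM in LOW RFI cows (mean 35.3 ± 9.17) and 12.3 to 51.1 RPKM in HIGH RFI cows (mean 37.1 ± 9.73). The core median exceeded the regulatory particle median in 39 of 39 cows. The rings did not share this excess evenly. Over the 39 cows, the median of the gene means was 39.5 RPKM in the alpha ring and 98.3 RPKM in the beta ring. It was 51.6 RPKM for base ATPases, 62.0 RPKM for the other base subunits and 33.1 RPKM for the lid. The alpha ring thus lay below the base. Recovered gene lengths differed between the particles, with a median of 1030 bp for core and 1936 bp for regulatory particle genes, and over the 38 tested genes longer ones had lower mean RPKM (Spearman's rho across genes −0.54). The part of length in the excess was not tested.

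The ratio of the core median to the regulatory particle median was 1.42 to 2.15 in LOW RFI cows (median 1.75, mean 1.73 ± 0.190) and 1.63 to 2.24 in HIGH RFI cows (median 1.92, mean 1.89 ± 0.165). The ranges overlapped. On the log2 scale the core exceeded the regulatory particle by 0.75 ± 0.15 in LOW RFI and 0.88 ± 0.12 in HIGH RFI cows, with 18 of 22 LOW RFI values under the median of HIGH RFI. The excess was also read by the month and year of the column. The mean of this excess was 0.74 in 4 LOW RFI and 0.86 in 2 HIGH RFI cows of September 2019. It was 0.74 in 3 LOW RFI cows and 0.98 in 1 HIGH RFI cow in November 2019. In January 2020 it was 0.70 in 2 LOW RFI and 0.84 in 2 HIGH RFI cows. In June 2020 it was 0.81 in 6 LOW RFI and 0.94 in 3 HIGH RFI cows. The order was the other way in December 2019, with 0.81 in 4 LOW RFI cows and 0.70 in 1 HIGH RFI cow. October 2019 and March 2020 held LOW RFI cows alone, and February and May 2020 HIGH RFI cows alone. The excess is a score over genes chosen for this description and was given no p-value.

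**Figure D2:**
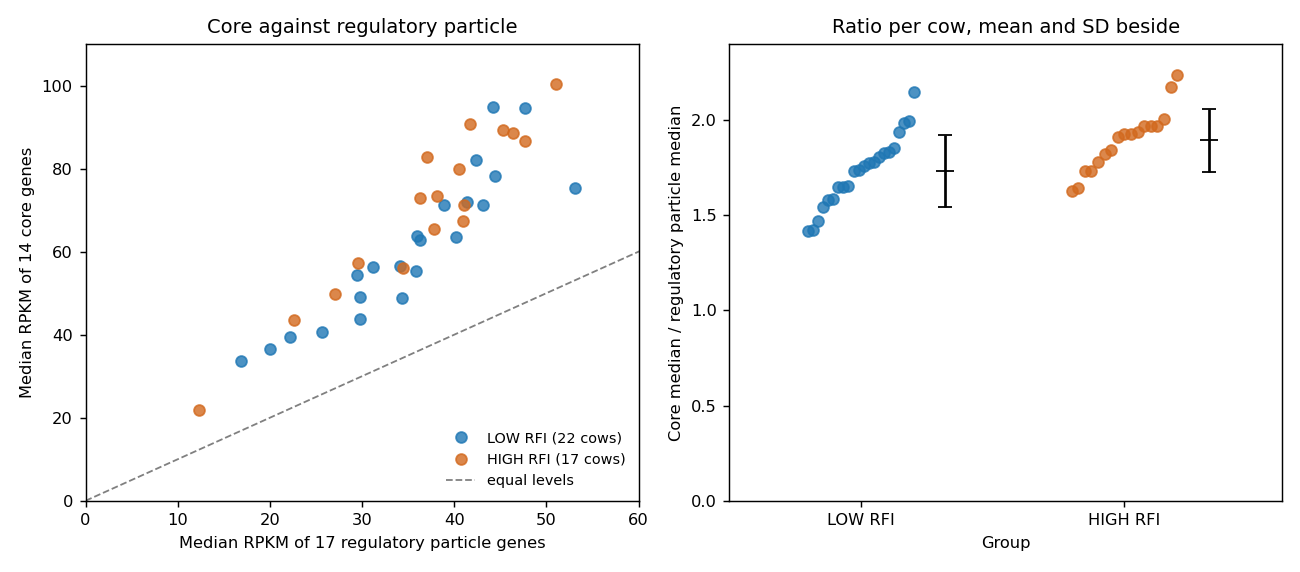
Left, the median RPKM of the 14 core genes against that of the 17 regulatory particle genes, 1 dot per cow, with a dashed line of equal levels; right, their ratio per cow in LOW RFI (22) and HIGH RFI (17) cows, with mean and SD beside the dots. All 39 cows lie above the line, and the ratio averages 1.73 in LOW RFI and 1.89 in HIGH RFI cows with overlapping ranges.

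No proteasome gene passed the test between the groups. In limma-trend on log2(RPKM + 1), 0 of 38 members passed a Benjamini-Hochberg adjusted p of 0.05, where 0% of all 10636 genes did, and 0 of 38 had an unadjusted p under 0.05, where 5.95% of all genes did. The SE of the difference was 0.11 to 0.24 over the members. Array weights, which give libraries that stand apart less weight, called 8 of 38 members lower in LOW RFI at the adjusted p and 14 at the unadjusted one, where 20.8% and 35.5% of all genes were called. Other alternatives gave 0 members at the adjusted p. At the unadjusted one they gave at most 2, without the 4 least correlated libraries (9.85% of all genes), and 1 with the year as a factor (9.47% of all genes). As deposited, 34 of 38 members were lower in LOW RFI cows, and so were 73.0% of all genes. The median difference, LOW RFI minus HIGH RFI, was −0.11 over the members and −0.12 over all genes. It was −0.12 over the core and −0.085 over the regulatory particle. The core and regulatory particle medians were −0.019 and 0.020 after rescaling without milk protein genes and 0.0068 and 0.045 with median-ratio size factors. They were 0.041 and 0.054 with quantile normalization. The core thus changed sign among these scalings. The regulatory particle was above 0 in each of them and below 0 as deposited.

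The smallest unadjusted p of a member was 0.0944, for the chaperone PSMD5 (difference −0.25, SE 0.15, limma adjusted p 0.769), and 16 of 22 LOW RFI values lay under the median of HIGH RFI. The lid subunit PSMD12, which holds the lid to the base, had 3.35 to 34.0 RPKM in LOW RFI cows (median 13.9, mean 14.7 ± 6.81) and 5.24 to 35.0 RPKM in HIGH RFI cows (median 21.9, mean 19.8 ± 9.02). Its difference was −0.37 (SE 0.23, limma adjusted p 0.769), with 19 of 22 LOW RFI values under that median. PSMA6 had the same difference, −0.37 (SE 0.23), also with 19 of 22, and PSME4 had −0.31 (SE 0.19) with 20 of 22. PSMA4 had −0.31 (SE 0.23) with 16 of 22. All of these had a limma adjusted p of 0.769 or 0.770, and the groups overlapped for all 38 members. The 4 members that were not lower in LOW RFI were PSMB5 (0.071, SE 0.13, limma adjusted p 0.872), PSMC3 (0.067), PSMD9 (0.013) and PSMA3 (0.0020).

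**Figure D3:**
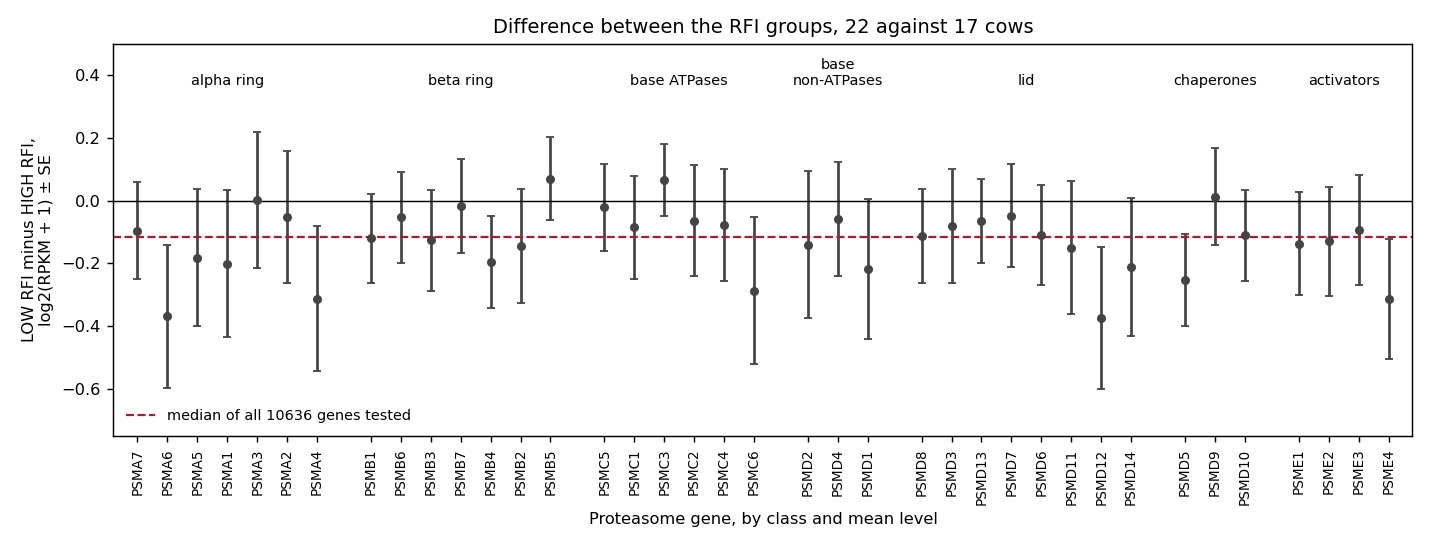
Difference between LOW RFI (22) and HIGH RFI (17) cows in log2(RPKM + 1), LOW RFI minus HIGH RFI, with its SE, for each tested gene by class; the dashed line is the median of all 10636 genes tested. The points scatter about the dashed line at −0.12, from −0.37 for PSMD12 and PSMA6 to 0.071 for PSMB5.

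The difference also varied with the month in the column name. In September 2019 (4 LOW RFI and 2 HIGH RFI cows) the median member difference was −0.25 and 37 of 38 members were lower in LOW RFI. In June 2020 (6 LOW RFI and 3 HIGH RFI cows) it was 0.38 and 1 of 38 was lower in LOW RFI. In January 2020 (2 LOW RFI and 2 HIGH RFI cows) it was −0.10, with 23 of 38 lower. The median of all genes had the same sign in September 2019 (−0.20) and June 2020 (0.31) and the other sign in January 2020 (0.086). PSMD12, PSMA6 and PSMD5 also had different signs in different months (LOW RFI minus HIGH RFI, log2). PSMD12 had −1.43 in September 2019, 0.50 in January 2020 and 0.047 in June 2020. PSMA6 had −1.63, 0.36 and 0.27 in the same months, and PSMD5 had −0.45, −0.40 and 0.12. The milk protein share averaged 22.7% in LOW RFI and 0.881% in HIGH RFI cows in September 2019, and 28.8% in LOW RFI and 41.1% in HIGH RFI cows in June 2020, and its part in these differences was not tested month by month.

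No gene that works beside the proteasome passed either. Of 37 genes in 4 lists (assembly factors, bound receptors and deubiquitinases, ubiquitin with its activation and delivery, and control by NFE2L1), 0 passed the adjusted p of 0.05. The median difference was −0.058 over 7 assembly factors, −0.16 over 9 receptors, deubiquitinases and inhibitors, −0.078 over 14 ubiquitin genes and −0.056 over 7 genes of NFE2L1 control, beside −0.12 over all genes. Among the assembly factors PSMG4 averaged 102 ± 54.3 RPKM in LOW RFI and 92.0 ± 34.4 RPKM in HIGH RFI cows. POMP, which matures the core, averaged 58.5 ± 20.8 RPKM in LOW RFI and 66.7 ± 25.7 RPKM in HIGH RFI cows. Among the bound proteins, SEM1, a small lid subunit, averaged 95.0 ± 43.0 RPKM in LOW RFI and 106 ± 41.5 RPKM in HIGH RFI cows. TXNL1, a bound thioredoxin-like protein, averaged 44.2 ± 12.4 RPKM in LOW RFI and 45.7 ± 13.2 RPKM in HIGH RFI cows.

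The polyubiquitin gene UBB was read far above the proteasome genes, with 1313 ± 313 RPKM in LOW RFI and 1475 ± 575 RPKM in HIGH RFI cows. The transcription factor partner MAFG averaged 30.2 ± 19.7 RPKM in LOW RFI and 39.0 ± 20.5 RPKM in HIGH RFI cows, and NFE2L2 averaged 25.0 ± 13.9 RPKM in LOW RFI and 36.5 ± 24.1 RPKM in HIGH RFI cows. UBA6, a ubiquitin-activating enzyme, alone of the 37 had an unadjusted p under 0.05, where 5.95% of all genes did. It read 0.282 to 3.04 RPKM in LOW RFI cows (median 1.40) and 0.411 to 5.15 RPKM in HIGH RFI cows (median 2.94). Its difference was −0.47 (SE 0.18, unadjusted p 0.0137, limma adjusted p 0.769), with 20 of 22 LOW RFI values under the median of HIGH RFI, and it did not pass.

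Most members varied less over cows than the median gene once libraries were rescaled without the milk protein genes. The SD over the 39 cows of log2(RPKM + 1) as deposited had a median of 0.53 over the members and 0.60 over all genes tested. It was largest for PSMC6, PSMA4 and PSMD2 (0.74 each) and smallest for PSMC3 (0.30), PSMB5 (0.37) and PSMD13 (0.38). HIGH RFI 17, the cow of highest milk protein share, had the lowest deposited value of 29 of the 38 members. After rescaling, the median SD was 0.29 over the members, 0.50 over all genes and 0.50 over the 8024 genes within the members' range of mean level. That range is wide, from PSME4 at percentile 21.8 to PSMA7 at percentile 97.4 of mean RPKM. Most members lie high in it, so those genes are a loose match for level. By rescaled SD, 20 of 38 members lay in the lowest 10% of all genes tested and 7 in the lowest 1%. PSMD8 had the smallest rescaled SD of the members, 0.15.

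The alpha ring was an exception to this evenness. Its median rescaled SD was 0.54, against 0.28 in the beta ring, and 5 of its 7 genes, PSMA1, PSMA2, PSMA3, PSMA4 and PSMA6, were above the median of all genes. PSMC6 (0.67), PSMD12 (0.56), PSME4 (0.54) and PSMD14 (0.50) made up the 9 members above it. PSMA7 did not share this and had a rescaled SD of 0.19. Across the 38 genes, lower mean RPKM went with larger rescaled SD (Spearman's rho −0.57), and length did not follow it as closely (rho 0.15).

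Levels went with the milk protein share of the library. As deposited, Pearson's r between log2(RPKM + 1) and that share was below 0 for all 38 members (median −0.75) and for 9484 of 10636 genes (median −0.69), and a limma fit on the share called 37 of 38 members lower at an adjusted p of 0.05, where 81% of all genes were. The 38 relations were computed on each scale. After rescaling, 25 of 38 members and 7332 of 10636 genes were below 0. The fit then called 4 members higher, where 19% of all genes were, and 12 lower, where 49.5% were. With median-ratio size factors it called 16 members higher, where 29.5% of all genes were, and 3 lower, where 34.8% were. With quantile normalization it called 11 higher, where 28.7% of all genes were, and 4 lower, where 32.5% were.

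The members called the same way under these 3 rescalings were PSMB5, PSMB6, PSMB7 and PSMC3, higher with the share, and PSMD1, PSMD2 and PSMD11, lower. The first 3 are the protease subunits. The whole set is 4 of 38 members higher and 3 of 38 lower. The share of all genes called the same way under all 3 was not computed, so neither count can be set against a background. PSMD11 falls outside the rule for named genes, and the choice of it and of this set was made with the values in view. Rescaled PSMB5 had r = 0.76 and rho = 0.76 with the share (permutation p 1e-05 for both, the smallest the resamples allow, n = 39) and r = 0.72 in 37 cows without the pair of most distant share, HIGH RFI 17 and LOW RFI 18. Its level rose by 0.15 (SE 0.022, limma adjusted p 1.9e-07) in log2 for each 10 percentage points of share. As deposited its r was −0.045 (permutation p 0.79), so its direction depends on the scaling.

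The other protease subunits had smaller slopes. PSMB6 rose by 0.057 (SE 0.020, limma adjusted p 0.011) per 10 percentage points after rescaling, with r = 0.44 (permutation p 0.0045) and rho = 0.49 (permutation p 0.0015), and r = 0.42 in 37 cows. PSMB7 rose by 0.048 (SE 0.022, limma adjusted p 0.0474), with r = 0.35 (permutation p 0.028) and rho = 0.47 (permutation p 0.0023). Without HIGH RFI 17 and LOW RFI 18 its r was 0.30 and its slope 0.047 (SE 0.026, limma adjusted p 0.117), so the slope was nearly as large but no longer passed. PSMC3 rose by 0.11 (SE 0.018, limma adjusted p 3e-06), with r = 0.72 and rho = 0.70 (permutation p 1e-05 for both) and r = 0.65 in 37 cows. PSMB6, PSMB7 and PSMC3 were lower with the share as deposited, so for these as well the direction is that of the rescaled values alone.

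PSMD11, PSMD2 and PSMD1 ran the other way, rescaled and as deposited. PSMD11, a lid subunit, had 8.31 to 47.5 RPKM as deposited in LOW RFI cows (median 27.5, mean 28.0 ± 11.5) and 5.45 to 38.8 RPKM in HIGH RFI cows (median 33.8, mean 30.5 ± 9.13). Rescaled PSMD11 had r = −0.73 and rho = −0.65 with the share (permutation p 1e-05 for both), r = −0.66 in 37 cows, and r = −0.90 as deposited. It fell by 0.12 (SE 0.019, limma adjusted p 1.7e-06) in log2 for each 10 percentage points after rescaling. PSMD2 fell by 0.14 (SE 0.024, limma adjusted p 3e-06), with r = −0.70 (permutation p 1e-05) and rho = −0.64 (permutation p 3e-05), and r = −0.64 in 37 cows. PSMD1 fell by 0.12 (SE 0.029, limma adjusted p 0.000483), with r = −0.55 (permutation p 0.00036) and rho = −0.57 (permutation p 0.00024), and r = −0.61 in 37 cows.

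The relation was read again within the 3 months of at least 6 cows. Rescaled PSMB5 had r = 0.84 in September 2019 (n = 6), r = 0.52 in February 2020 (n = 6) and r = 0.88 in June 2020 (n = 9), and PSMC3 had r = 0.85, r = 0.61 and r = 0.89 in the same months. PSMD11 had r = −0.62, r = 0.27 and r = −0.91, and PSMD2 had r = 0.17, r = 0.024 and r = −0.95. The fall of PSMD2 and PSMD11 thus did not hold in February 2020, when the share spanned 0.103 to 21.2%, and that of PSMD2 did not hold in September 2019.

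Marker levels of cell types moved with the same genes, as a description without tests. With the mean rescaled log2 level of the 13 mammary epithelium markers, PSMC3 had r = 0.68 and PSMB5 r = 0.64. With the 11 tested neutrophil markers, PSMC3 had r = −0.73 and PSMB5 r = −0.63. With the 18 tested interferon response genes, PSMB5 had r = −0.72 and PSMC3 r = −0.68. With the 11 tested macrophage markers, PSMD2 had r = 0.80 and PSMD11 r = 0.79. PSME1 had r = 0.57 with the 9 T cell markers and r = 0.57 with the 4 tested B and plasma cell markers. Its r with the interferon response genes was 0.26. PSME2, its partner in the cap, had r = 0.43 with the interferon response genes. For PSME2 it was 0.37 with the T cell markers and 0.30 with the B and plasma cell markers. The first gene named for each list had the r farthest from 0 of the 38 members. The median r over the 38 was −0.063 for mammary epithelium, −0.10 for neutrophil, 0.17 for interferon response and 0.22 for macrophage markers. It was 0.048 for T cell and −0.048 for B and plasma cell markers. The summed neutrophil markers ranged from 26.9 to 4056 RPKM in LOW RFI and 18.6 to 4072 RPKM in HIGH RFI cows, and the summed macrophage markers from 118 to 18438 RPKM in LOW RFI and 131 to 13539 RPKM in HIGH RFI cows. No listed marker was at 0 in every cow of a group. The part of cell type make-up in the levels of the members was not tested beyond the covariate fits.

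**Figure D4:**
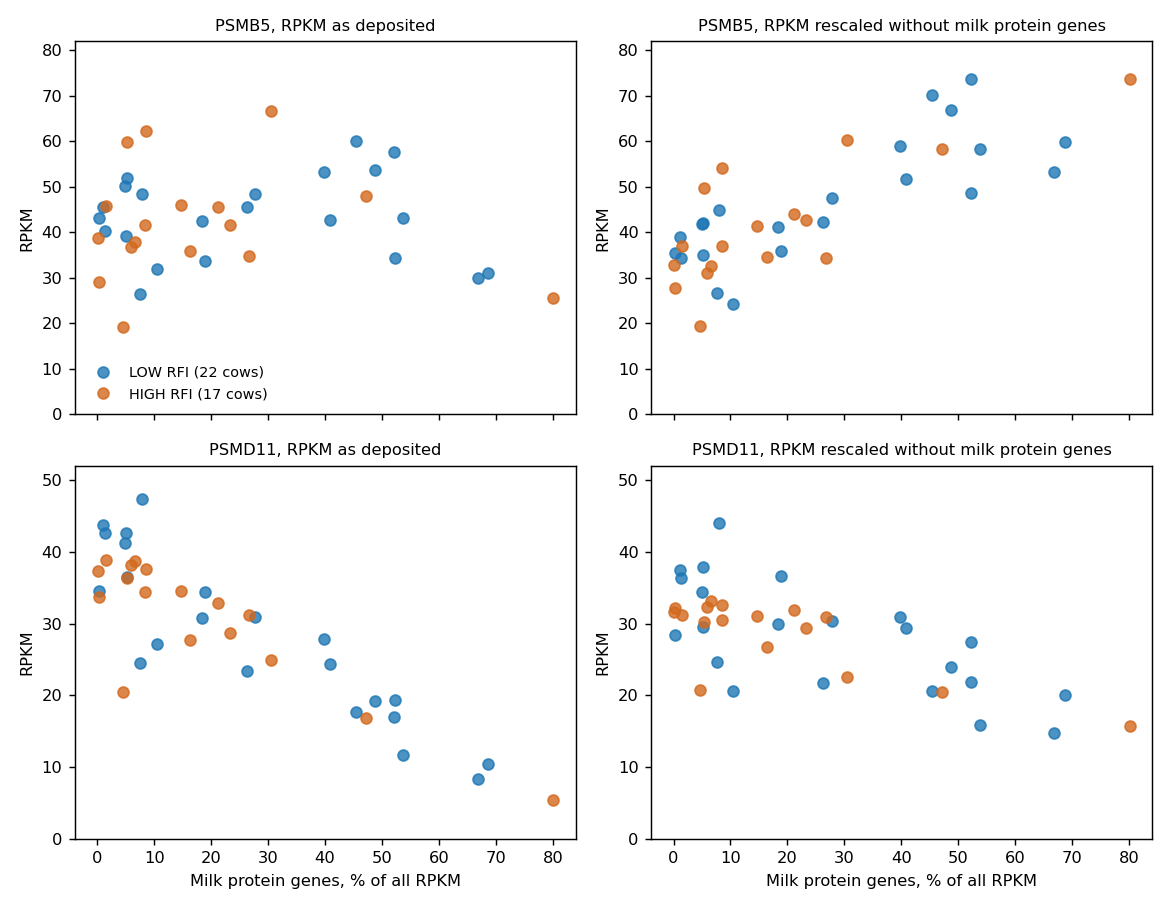
RPKM of PSMB5 (top) and PSMD11 (bottom) against the percentage of all RPKM taken by 7 milk protein genes, as deposited (left) and rescaled without those genes (right), 1 dot per cow, LOW RFI (22) and HIGH RFI (17). After rescaling PSMB5 climbs with the share (r = 0.76) while PSMD11 declines (r = −0.73), and the groups mix along both.

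The members did not vary as 1 block. Over the 703 pairs the median rescaled r over 39 cows was 0.29, against 0.13 over all pairs of genes tested, and 0.31 in the 37 cows without HIGH RFI 17 and LOW RFI 18. Over all 39 cows it was 0.32 within the core, 0.33 within the regulatory particle and 0.26 between them. With median-ratio size factors these medians were 0.36 within the core, 0.21 within the regulatory particle and 0.31 between them. Pairs across the particles thus did not have the lowest median on that scale. As deposited the median was 0.76 over the members and 0.45 over all pairs. All pairs share the same libraries, and genes are not independent of each other.

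Within the core, the rings were less correlated with each other than within themselves. As deposited the median r was 0.85 within the alpha ring, 0.83 within the beta ring and 0.58 between the rings. The median rescaled r was 0.74 within the alpha ring and 0.45 within the beta ring, but 0.051 between the rings. PSMA1 to PSMA6 had a median r of 0.78 among themselves (0.57 to 0.92), while PSMA7 with those 6 had a median of −0.047 (−0.13 to 0.23), and its closest member was PSMB3 (r = 0.73). As deposited PSMA7 had a median r of 0.60 with those 6, against 0.88 among them. With median-ratio size factors the medians were 0.74, 0.69 and 0.046. The protease subunits PSMB5 and PSMB6 were each other's closest member (r = 0.86), and PSMB6 was also the closest member of PSMB7 (r = 0.77).

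Strong pairs crossed the particles. Of the 37 other members, 12 had r of at least 0.7 with PSMA4, namely PSMA1, PSMA2, PSMA3, PSMA5, PSMA6, PSMC2, PSMC6, PSMD1, PSMD12, PSMD14, PSMD10 and PSME4. They are 5 core, 5 regulatory particle and 2 other members, and the 8 other members whose rescaled SD exceeded the median of all genes are all among them. PSMD2 had 6 such partners, PSMC1, PSMC4, PSMD4, PSMD3, PSMD11 and PSME3, with 0 from the core. PSMB5 had 3, PSMB6, PSMB7 and PSMC3. Over all pairs of members, 113 of 703 (16.1%) had r of at least 0.7. The count of PSMD2 is near that share and that of PSMB5 is below it. The share over all pairs of genes is not given here. These sets were drawn after the correlations were seen. The highest r of all pairs was 0.93, between the beta subunit PSMB2 and the ATPase PSMC4. The closest member was a core gene for 11 of 14 core genes, and a regulatory particle gene for 12 of 17 regulatory particle genes. The cap genes PSME1 and PSME2 were each other's closest member (r = 0.75), and in the reference annotation 1 protein-coding gene lies between them.

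**Figure D5:**
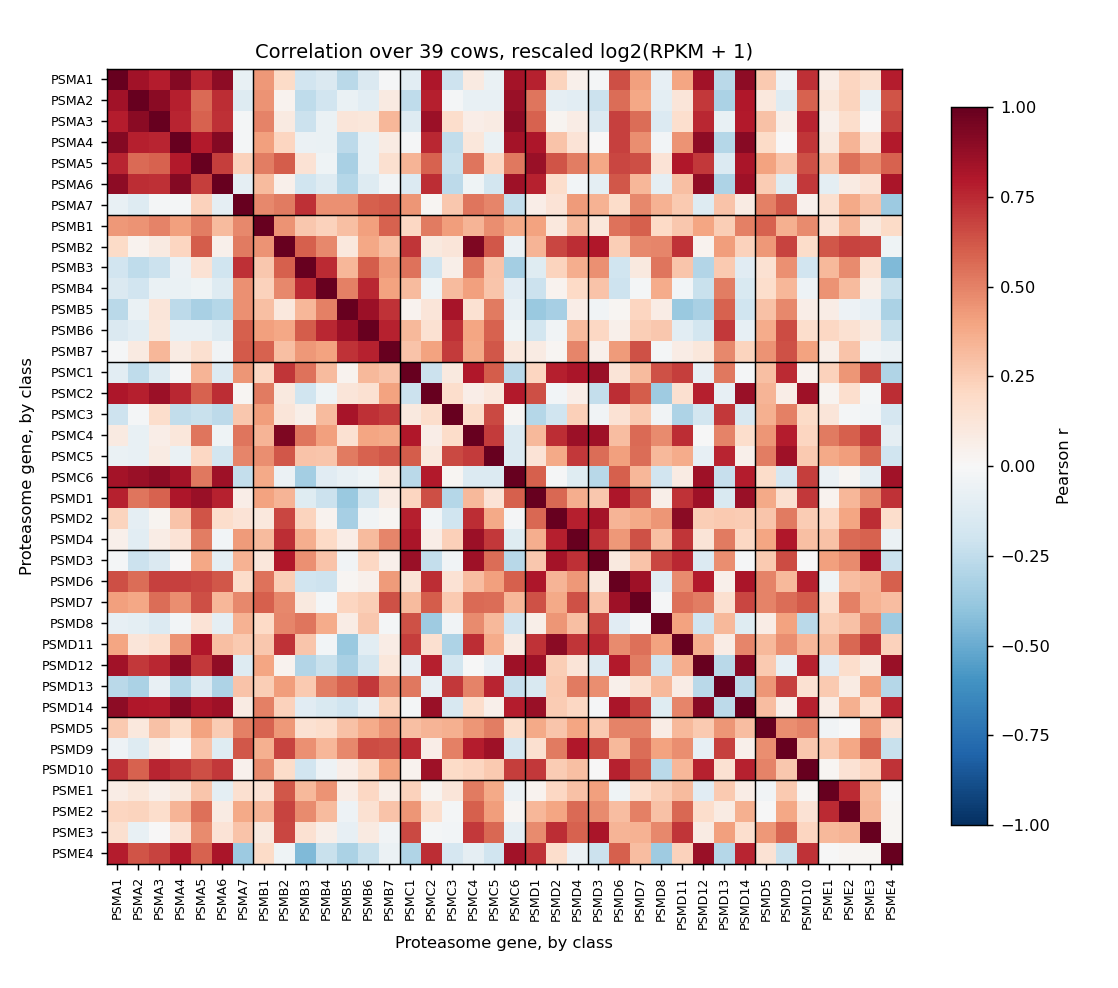
Pearson's r over 39 cows between each pair of the 38 tested genes, from rescaled log2(RPKM + 1), with lines between the classes alpha ring, beta ring, base ATPases, base non-ATPases, lid, assembly chaperones and activators. PSMA1 to PSMA6 form a red block (median r 0.78) that continues into PSMC6, PSMD12, PSMD14 and PSME4, while the alpha and beta rings are pale against each other (median r 0.051).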

How the data were processed

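Transcript levels in milk somatic cells were deposited by the authors as 1 table of RPKM values (reads scaled to gene length and to mapped reads), per the file headers. RNA was extracted with Trizol and made into libraries with a TruSeq kit, per the labels' protocols. Per the submitters' processing notes the genome build was ARS-UCD1.2. Which aligner, counter and annotation were used is not given in the sources used here. Gene names and neighbours were checked in a reference table of ARS-UCD2.0, so no coordinates are given. No source says whether strand was used in counting, and genes that overlap or have near-identical copies may share reads.

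Rows sharing a symbol (135) were summed to 21590 genes. Reads, gene lengths and library totals (41637742 to 204905052 mapped reads, 80.9 to 96.5% of them in genes) were recovered from the steps of the RPKM values. All 19616 features with a value gave whole reads in every library, a weak statement for features read in few libraries. For the 16236 features seen in at least 20 libraries, values of at least 0.01 RPKM lay within 0.02 reads of a whole read. That limit is the tolerance at which a gene length was accepted, so it is not a separate check. The recovery and the fit were tested on simulated data. The cow is the replicate.

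The test was limma-trend (limma 3.58.1, R 4.3.3, robust) on log2(RPKM + 1) over the 10636 genes that reached 1 RPKM in 17 or more cows, two-sided, with Benjamini-Hochberg adjustment over all of them. A pseudocount of 1 understates the difference of low genes. Correlations used 100000 resamples, two-sided. Medians, SDs and figures were made with Python 3.11.15. Rescaling divided each library by its RPKM total without 7 milk protein genes. The alternatives were other scalings, pseudocounts, filters, covariates, samples, limma-voom and array weights.

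The members, gene lists and tests were chosen with earlier results of these data known. Values in both groups are given for the highest and lowest gene of each class, the 5 smallest p, the 3 largest and 3 smallest SDs, the protease subunits, the 2 highest genes of each other list and those with an unadjusted p under 0.05. Of 38 listed pathway genes, 1 was not analysed here. The values of 1 gene that this rule names are not reported here.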

Additional observations from a re-analysis of the deposited data

How the results depend on the processing

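The count of genes and of members passing between LOW RFI and HIGH RFI cows stayed at 0 under every alternative except array weights, which called 2213 genes (20.8% of those tested) and 8 of 38 members, a share near that background. Members at an unadjusted p under 0.05 numbered 14 with array weights (35.5% of all genes), 2 without the 4 libraries least correlated with the rest, LOW RFI 18, LOW RFI 20, HIGH RFI 11 and HIGH RFI 17 (9.85% of all genes), and 1 with the year as a factor (9.47% of all genes), which was added after seeing the data. The cause of the calls with array weights was not tested. The median difference of the members lay between −0.22 with the year as a factor and 0.062 with the milk protein share as a covariate, and that of all genes between −0.23 and 0.060. PSMD5, PSMD12, PSME4, PSMA6, PSMA4 and UBA6 kept their sign in all fits over several months that tested them. Within single months PSMD5, PSMD12 and PSMA6 did not, and PSME4, PSMA4 and UBA6 were not read by month. PSMB5 turned to −0.0053 with rescaling and month together. Without 8 libraries whose column carries an extra number after the animal (7 LOW RFI and 1 HIGH RFI), the members' median difference was −0.022 and 0 were called. No member had an unadjusted p under 0.05 for a different group effect by year, and 0 genes passed in that test (7 at an unadjusted p under 0.05).

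The core median exceeded the regulatory particle median by 0.81 in log2 over all cows. With the assembly chaperones counted in, the excess was 0.96 (0.93 in LOW RFI and 1.01 in HIGH RFI cows). Members with r below 0 against the milk protein share numbered 38 as deposited, 25 after rescaling, 10 with median-ratio size factors and 16 with quantile normalization. Of all genes tested, the slope on the share was below 0 for 89.2%, 68.9%, 54.7% and 54.3% on these scales, in the same order. The median r over pairs of members was 0.29 after rescaling, 0.27 with median-ratio size factors and 0.29 with quantile normalization. The cause was not tested. The slopes as deposited were −0.0075 for PSMB5, −0.10 for PSMB6, −0.11 for PSMB7 and −0.050 for PSMC3, against positive ones after rescaling, and the rescaled slope of PSMB7 was 0.037 with the month as a factor (adjusted p 0.18) and 0.042 without the 4 libraries (adjusted p 0.171), against 0.048. No paired analysis was possible because the replicate numbers only name cows in label order. The tested members had at least 80 reads in each library, while PSMA8 and PSMB11 had at most 5, which allows no comparison.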
